A study of Mus musculus with 24 samples.

Results

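The mouse zinc finger genes numbered Zfp900 to Zfp999 were followed across both strains and both Smchd1 genotypes of a neural stem cell (NSC) RNA sequencing series. Members were all genes whose listed symbol was Zfp followed by a 9 and 2 further digits, and 50 of the 14922 genes in the table met this rule. RefSeq named 62 genes in this range, and the other 12 were not analysed here. NSCs are the dividing precursors of neurons and glia, and the lines here were primary, female, derived from E14.5 cortical tissue and used at early passage. The comparisons ran over 4 groups and 22 libraries. FVB_WT lines were Smchd1+/+ on the FVB/NJ background (6 libraries of 5 lines), and FVB_MD43 lines were homozygous on that background for the MommeD43 allele, a chemically induced missense change in Smchd1 (5 libraries of 4 lines). B6GFP_WT lines were on the C57BL/6 background and homozygous for a fusion of Smchd1 with GFP (6 libraries of 4 lines), and B6GFP_MD43 lines were homozygous for that fusion with the MommeD43 change recreated by genome editing (5 libraries of 4 lines). Strain and GFP fusion therefore differed together and cannot be told apart. Batch 1 held both strains, batch 2 FVB lines alone and batch 3 B6GFP lines alone.

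Most genes in this number range encode KRAB zinc finger proteins. Such proteins bind DNA through a row of C2H2 zinc fingers, and their KRAB domain recruits the corepressor TRIM28 and the histone methyltransferase SETDB1, which silence the bound site. Many are known for recognising retrotransposons, and in rodents their genes sit in fast-changing arrays of near copies. SMCHD1, the protein altered by MommeD43, is a chromatin protein that keeps genes silent on the inactive X chromosome and in several gene clusters. A search of the annotated coding sequences for the C2H2 spacing found at least 1 finger in 49 of the 50 genes, with a median of 11 and at most 21. A KRAB-box pattern (F, any 2 residues, 2 acidic residues, W, any 2 residues, L or M) was found in 46.

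The genes lay on 11 chromosomes, and 28 of them fell into 4 physical clusters with neighbouring starts within 1 Mb (coordinates on GRCm38.p6). These were 8 genes on distal chromosome 2 (175372034 to 178078425), 7 on chromosome 4 (146449030 to 147849126), 3 on chromosome 8 (69209018 to 69749962) and 10 on chromosome 17 (21565816 to 22867309). The chromosome 2 genes were so alike that their start regions could be laid side by side. Over 230 bases aligned without gaps, identity between pairs ran from 93.9% to 100%. Over these bases Zfp970 was closer to Zfp965, Zfp966, Zfp967, Zfp968 and Zfp973 (98.7% to 99.1%) than to Zfp971 (97.4%) or Zfp931 (95.2%). The 30-base window below is shown because it tells the 3 genes that were lower in B6GFP_WT lines from their 5 near copies. It begins 6 to 76 bases before a start site that RefSeq lists (GRCm38.p6), and each sequence is written 5′ to 3′ on the strand of its gene. Capitals mark 6 letters that read TTCCGG in 5 genes and TTCCAG in 3.
Zfp968: agaagaggaggcggttcTTCCGGgtcaagc
Zfp965: agaagaggaggcggttcTTCCGGgtcaagc
Zfp966: agaagaggaggcggttcTTCCGGgtcaagc
Zfp967: agaagaggaggcggttcTTCCGGgtcaagc
Zfp973: agaagaggaggcggttcTTCCGGgtcaagc
Zfp970: agaagaggaggcggctcTTCCAGgtcaagc
Zfp971: agaagaggaggcggttcTTCCAGgtcaagc
Zfp931: agaaaaggaggcggctcTTCCAGgtcaagc

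The window lay at chr2:175469979-175470008 on the plus strand for Zfp965 and at chr2:177464705-177464734 on the plus strand for Zfp970. Counted from 1 at the 5′ end of the window, Zfp971 differed from Zfp965 by G22A, Zfp970 by T15C and G22A, and Zfp931 by G5A, T15C and G22A. Searched on both strands in windows from 250 bases before to 50 after a start, TTCCGG was present in 15.2% of 27025 promoters and in 48.9% of the 45 Zfp900 to Zfp999 promoters found in the RefSeq table. TTCCAG was in 25.2% of all and in 48.9% of the 45. All 8 chromosome 2 promoters held it somewhere in these longer windows, so only its place in the short window tells the copies apart. These letters were chosen after the differences between the genes had been seen, and the match is a description of the reference sequence, not a binding site. The 100 bases just upstream of the window in Zfp965 (chr2:175469879-175469978, plus strand) hold a CCAAT box, in capitals.
Zfp965: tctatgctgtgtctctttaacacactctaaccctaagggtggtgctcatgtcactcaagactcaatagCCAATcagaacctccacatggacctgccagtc

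CCAAT, on either strand, was in all 8 of the chromosome 2 promoters, in 73.3% of the 45 and in 37.9% of all 27025. GGGCGG, the GC box, was in 33.3% of the 45 and in 35.9% of all. TATAAA was in 0 of the 45 and in 14.2% of all promoters. Copies of one ancestral promoter are counted separately in these shares.

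Near-identity also bore on what a read count could mean for each gene. Of all 75-base stretches of a gene's annotated transcripts, the length of a read in this study, the share also found in a transcript of another gene was 5.11% at the median of the 50. It was over 10% in 20 genes and 0 in 6. The highest shares were on chromosome 2, at 100% for Zfp967, 94.6% for Zfp965, 92.3% for Zfp968 and 85.1% for Zfp966. Zfp973 of the same cluster was at 76%, and Zfp970, Zfp971 and Zfp931 shared less, at 30.4%, 32.8% and 12.6%. On other chromosomes, Zfp993 and Zfp991 (chromosome 4) were at 78.7% and 75.9%, and Zfp960 (chromosome 17) at 75.3%. Where the share is high, counts of single genes are uncertain, because the reads of one copy could be given to another.

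The library values were log2 CPM, a gene's reads scaled to the size of its library on the log2 scale, and had been corrected for batch before deposit. As these were bulk samples, fewer cells of a type and less RNA per cell cannot be told apart. The NSC markers Vim, Fabp7, Nes and Sox2 had means over libraries of 11.12, 10.58, 10.16 and 7.93 log2 CPM, and none of 4 microglial markers was in the table. Setting the deepest library to 1, the shallowest of batches 1, 2 and 3 reached 0.526, 0.137 and 0.435, and no library of batch 2 exceeded 0.19. The absolute depth was unknown, so no counting interval can be given. Markers of glial differentiation moved with strain. All 3 astrocyte markers were lower in B6GFP in both genotypes. Of oligodendrocyte lineage genes, Mbp was lower in B6GFP_WT (log2 difference -4.49), Olig2 was higher (0.26), and Sox10 (-0.73) and Pdgfra (0.11) did not pass. Of 6 neuronal markers 2 were lower and 1 higher. Over libraries, the summed astrocyte markers ranged from 6.13 to 7.27 log2 CPM in FVB_WT and from 4.33 to 6.7 in B6GFP_WT. Stem cell markers differed as well, with 5 of 8 lower in B6GFP_WT (Hes1 at -1.41, Msi1 at -0.62) and 2 higher (Nes at 0.67), although their sum, set by the most abundant of them, stayed between 12.37 and 12.93 in every library. The part of these differences in the strain results for the zinc finger genes was not tested. Smchd1 itself, on the same scale, had group means of 7.27 in FVB_WT, 7.36 in FVB_MD43, 6.96 in B6GFP_WT and 7.16 in B6GFP_MD43, and as MommeD43 is a missense change this level does not check the genotype labels.

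Levels set per kilobase of merged exon spanned a wide range. The highest means over the 4 groups were those of Zfp948 (3.71 log2 CPM per kb), Zfp958 (3.44), Zfp970 (3.03), Zfp971 (2.95) and Zfp944 (2.76). The lowest were those of Zfp973 (-2.35), Zfp968 (-2.29) and Zfp964 (-2.11). The chromosome 2 cluster thus held genes at both ends of the range.

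The first comparison asked how the genes differed between the strains in wild-type cells. At an adjusted p under 0.05 (limma, Benjamini-Hochberg over all 14922 genes), 32 of the 50 differed, with 26 lower and 6 higher in B6GFP_WT than in FVB_WT. Of all genes, 41.1% passed, 23.2% lower and 17.9% higher. The lower side of the family, 52% of its genes, was therefore above the background and the higher side, 12%, below it. The 290 other genes named Zfp with a number gave 51% lower and 6.21% higher. The median difference, B6GFP_WT minus FVB_WT, was -0.37 over the 50 genes, -0.22 over the other Zfp genes and -0.02 over all genes. When each library was centred on its median, the split of all genes turned from 3455 lower and 2676 higher to 2544 lower and 3608 higher, while the 50 genes gave 25 lower and 6 higher.

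The number passing rested on the weights given to the libraries, which ran from 0.101 to 4.9 and were largest in batch 1. Without weights 6 of the 50 passed (12%, against 8.44% of all genes), and these were Zfp937, Zfp949, Zfp961, Zfp965, Zfp970 and Zfp973. All 32 genes kept their direction without weights. Within batch 1, the only batch with both strains, 27 passed (54%, against 34.1% of all genes), 26 of them among the 32, and all 32 kept their direction. When each line was left out in turn, 27 to 33 genes passed (54% to 66%), against 26.9% to 42.9% of all genes. Of the 32, 25 passed in each of the 17 fits, and the like share over all genes was not counted.

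**Figure D1:**
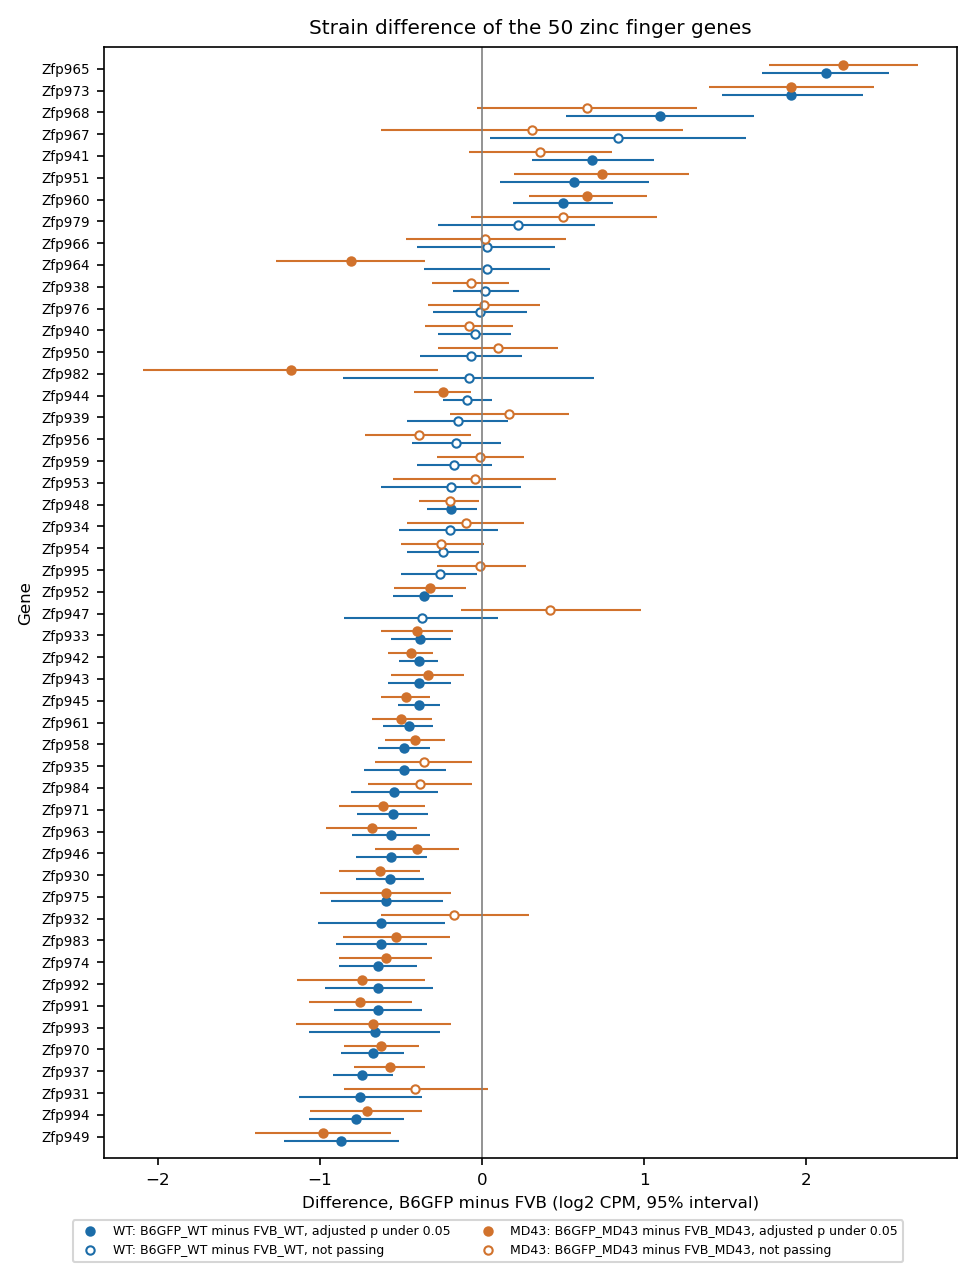
Difference in log2 CPM between B6GFP and FVB lines (x axis) for each of the 50 genes (y axis, in order of the wild-type difference), with points for the fitted difference, bars for its 95% interval, blue for wild type and orange for MD43, and filled points for an adjusted p under 0.05. Zfp965 and Zfp973 stand far to the right in both genotypes, at 1.91 to 2.23, and most other filled points lie to the left of 0.

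**Figure D2:**
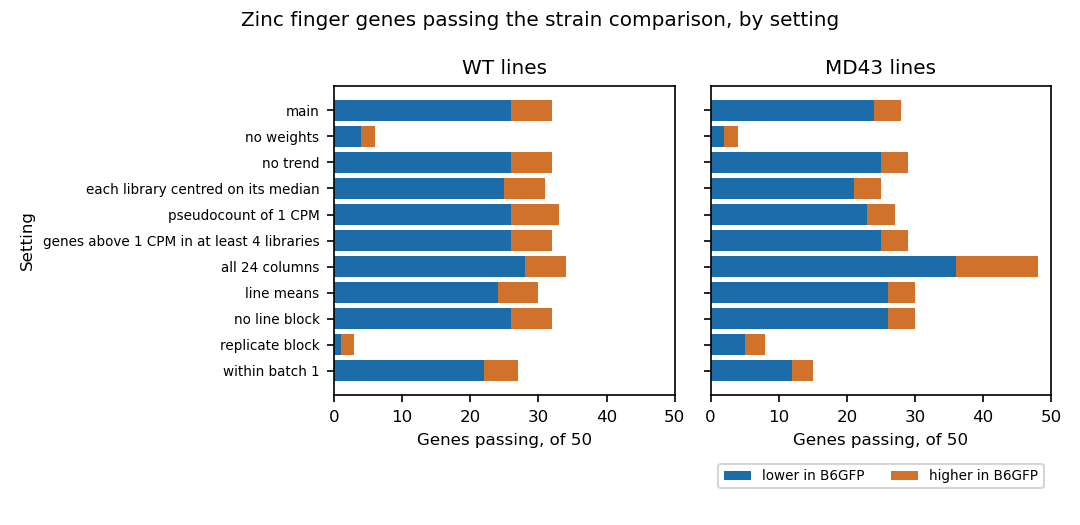
Number of the 50 genes with an adjusted p under 0.05 (x axis) under each setting (y axis), in wild-type lines (left) and MD43 lines (right), split into genes lower (blue) and higher (orange) in B6GFP. The bars for no weights (6 and 4) and for the replicate block (3 and 8) are the shortest.

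The largest differences were those of a pair of near copies on distal chromosome 2, a KRAB gene pair with 6 fingers each. In FVB_WT, Zfp965 (chromosome 2, 175470025 to 175480553) ran from -2.41 to -1.32 log2 CPM with a median of -1.88, and in B6GFP_WT from 0.23 to 0.8 with a median of 0.53. In FVB_MD43 its values were -1.75, -2.12, -1.88, -1.88 and -1.88, and in B6GFP_MD43 they were 0.3, 0.42, 0.39, 0.15 and 0.1. Every B6GFP library was thus above every FVB library. The 6 libraries of batch 2, all FVB, held 0 reads of the gene, and the value of -1.88 that they share is what was listed there for 0 reads. The fitted difference was 2.12 (SE 0.187, adjusted p = 1.72e-08) and 2.06 within batch 1. With levels this low its size rested on the pseudocount, and adding 1 CPM gave 0.86, which still passed.

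Zfp973 (chromosome 2, 176670522 to 176681090) followed the same order. It ran from -2.94 to -1.18 in FVB_WT and from 0.05 to 0.57 in B6GFP_WT. In FVB_MD43 it was at -2.22, -1.82, -1.94, -1.94 and -1.94, and in B6GFP_MD43 at 0, 0.08, 0.13, -0.04 and -0.03. The strains did not overlap in either genotype, and batch 2 again held 0 reads. The fitted difference was 1.91 (SE 0.21, adjusted p = 3.74e-07), and 0.75 with 1 CPM added. Since 82.9% of the 75-base stretches of Zfp965 were also found in Zfp973, the 2 genes may not be separate observations.

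Their neighbour Zfp968, another KRAB gene of this array, ran from -1.93 to -0.02 in FVB_WT and from -0.48 to 0.27 in B6GFP_WT. These ranges overlapped through 1 FVB library of batch 2, at -0.02, which held 1 read. The difference was 1.1 (SE 0.278, adjusted p = 0.00331), and 0.4 with 1 CPM added. Zfp967 differed by 0.84 (SE 0.38) and did not pass, at an adjusted p of 0.0845, and Zfp966 differed by 0.03 (SE 0.204). Within batch 1 alone, Zfp967 did pass (0.75, limma adjusted p = 0.0214), and Zfp966 did not (-0.08). Zfp966 and Zfp967 hold the same 30-base window as Zfp965, Zfp968 and Zfp973, which passed over all 22 libraries.

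The 3 genes at the distal end of the same cluster went the other way. In FVB_WT, Zfp970 (chromosome 2, 177464742 to 177479194) ran from 4.12 to 4.66 log2 CPM with a median of 4.46, and in B6GFP_WT from 3.51 to 4.17 with a median of 3.87. In FVB_MD43 its values were 4.42, 4.61, 4.25, 4.52 and 4.57, and in B6GFP_MD43 they were 3.87, 4.12, 3.84, 3.98 and 3.86. The ranges met only at 4.12 to 4.17 in wild type and were apart in MD43. The difference was -0.67 (SE 0.0936, adjusted p = 9.29e-06). Zfp971 was lower by 0.55 (SE 0.108), and Zfp931 was lower by 0.75 (SE 0.182), both passing. In MD43 Zfp971 passed again (-0.61, SE 0.127), and Zfp931 did not (-0.41, SE 0.214).

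Summing removes the effect of how counted reads were split within a set of copies. The linear CPM of Zfp965, Zfp966, Zfp967, Zfp968 and Zfp973 summed to 2.22 ± 0.151 (log2 of the sum, SD over 5 lines) in FVB_WT and 3.03 ± 0.128 (SD over 4 lines) in B6GFP_WT. The sum of Zfp970, Zfp971 and Zfp931 was 5.58 ± 0.258 in FVB_WT and 5.03 ± 0.232 in B6GFP_WT. The first sum was higher in every B6GFP_WT library (2.89 to 3.31) than in any FVB_WT library (1.99 to 2.42). In MD43 the strains overlapped in this sum, from 2.26 to 3 in FVB_MD43 and from 2.74 to 3.12 in B6GFP_MD43. The sum of Zfp970, Zfp971 and Zfp931 ran from 5.47 to 5.85 in FVB_MD43 and from 5 to 5.31 in B6GFP_MD43. All 8 genes together summed to 5.71 ± 0.242 in FVB_WT and 5.35 ± 0.21 in B6GFP_WT, with overlapping libraries. The split into 5 and 3 follows the letters of the window, which were chosen after the differences were seen. These sums carry no test, and genes outside the family that share the same reads are not in them. Reads dropped for matching several copies, if any, would be missing too, as the read counter is not given. In batch 2, 0 reads entered the sums as the value listed for them, such as -1.88 log2 CPM for Zfp965.

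**Figure D3:**
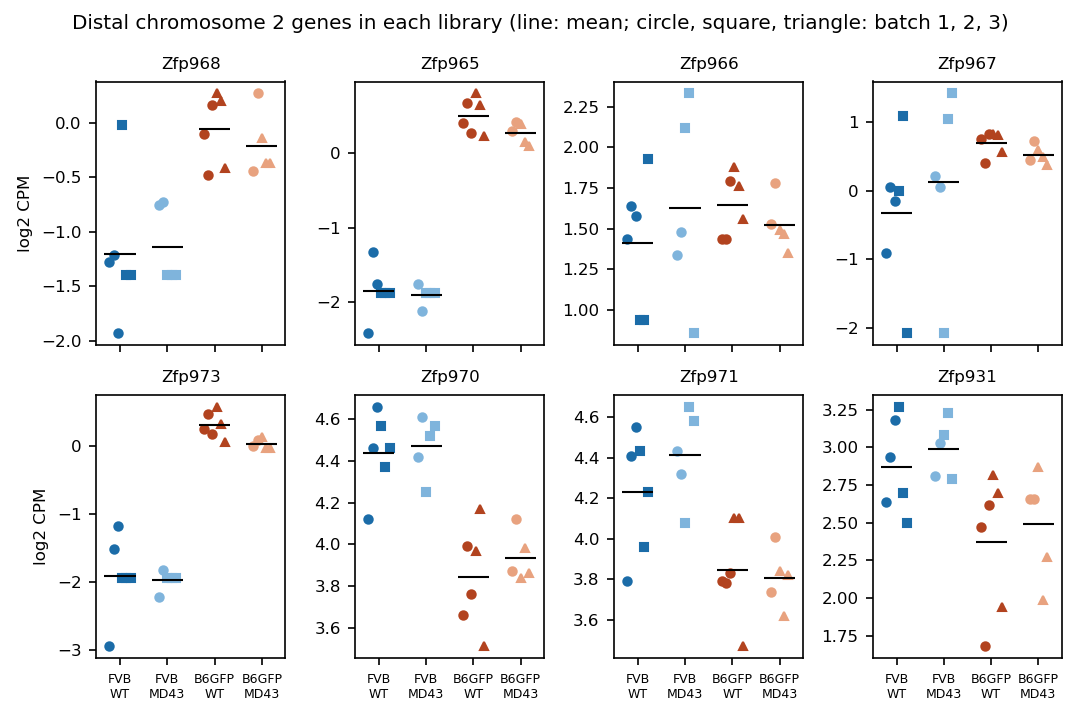
Level in log2 CPM (y axis, a separate scale for each gene) of the 8 distal chromosome 2 genes in every library of the 4 groups (x axis), with a line at the unweighted mean over libraries and the marker shape for the batch. The B6GFP libraries lie above all FVB libraries for Zfp965 and Zfp973, and the B6GFP_WT values reach lower than any FVB_WT value for Zfp970, Zfp971 and Zfp931, with overlap.

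Outside chromosome 2, 3 genes were higher in B6GFP_WT. Zfp941 (chromosome 7) ran from 1.66 to 2.54 log2 CPM in FVB_WT and from 2.21 to 3.21 in B6GFP_WT, a difference of 0.68 (SE 0.18, adjusted p = 0.00464). Zfp960 (chromosome 17) differed by 0.5 (SE 0.148, adjusted p = 0.0108), and 74.7% of its 75-base stretches were also in Zfp97. Zfp951 (chromosome 5), none of whose stretches were shared, differed by 0.57 (SE 0.221, adjusted p = 0.0431) and kept its call in 11 of 17 leave-one-line-out fits. For all 3 the libraries of the strains overlapped in wild type.

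Among the genes that were lower in B6GFP_WT, Zfp937 had the smallest p. It is a KRAB gene with 14 fingers on chromosome 2 (150218077 to 150246738), away from the distal cluster. In FVB_WT it ran from 3.23 to 3.83 log2 CPM with a median of 3.79, and in B6GFP_WT from 2.83 to 3.16 with a median of 3.05. In FVB_MD43 it was at 3.78, 3.77, 3.48, 3.71 and 3.77, and B6GFP_MD43 ran from 2.99 to 3.39. All FVB libraries lay above all B6GFP libraries of the same genotype. The difference was -0.74 (SE 0.0888, adjusted p = 1.33e-06), and 18.3% of its stretches were also in Zfp442.

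Zfp958 on chromosome 8, with 13 fingers and no shared stretch, had FVB_WT values from 4.66 to 5.01 and B6GFP_WT values from 3.9 to 5.02, so the ranges overlapped, with 2 B6GFP libraries (4.68 and 5.02) at or above the lowest FVB value. Its difference was -0.48 (SE 0.0758, adjusted p = 4.11e-05). Zfp961, also on chromosome 8, was lower by 0.45 (SE 0.075), and Zfp974 on chromosome 7, with 21 fingers the longest array of the family, was lower by 0.64 (SE 0.115). Zfp949 on chromosome 9 had the largest decrease, -0.87 (SE 0.172, adjusted p = 0.000407), and no stretch shared with another gene. It was named after its value was seen, and ran from 1.47 to 3.05 in FVB_WT and from 0.58 to 1.61 in B6GFP_WT.

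In the chromosome 17 cluster the differences had one sign. All 10 of its genes had a difference below 0, with a median of -0.39. This sign was held by 78% of the 50 genes, 77.6% of the other Zfp genes and 53.4% of all genes. On the lower side 7 of the 10 passed, against 51% of the other Zfp genes and 23.2% of all genes. Its genes share few stretches, at most 9.75% (Zfp994). In FVB_WT, Zfp942 ran from 4.34 to 4.74 log2 CPM, and in B6GFP_WT from 4.24 to 4.41, a difference of -0.39 (SE 0.0573, adjusted p = 1.55e-05). Zfp945, with 18 fingers, was lower by 0.39 (SE 0.0626), Zfp946 by 0.56 (SE 0.107) and Zfp994 by 0.78 (SE 0.141), and all 3 passed. Zfp944 (-0.09), Zfp947 (-0.37) and Zfp995 (-0.26) did not.

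On chromosome 4, 5 of 7 genes passed, all lower, with a median of -0.54. Of the other Zfp genes 51% passed on the lower side, and of all genes 23.2%. Zfp991, Zfp992 and Zfp993 were lower by 0.64 (SE 0.132), 0.64 (SE 0.161) and 0.66 (SE 0.196). They share reads, with 75.4% of the stretches of Zfp993 found in Zfp991 and 30.3% of those of Zfp992. Zfp933, with 0.0703% shared, was lower by 0.38 (SE 0.09). On chromosome 8, Zfp930 and Zfp963 were lower by 0.57 (SE 0.102) and 0.56 (SE 0.114), and Zfp964 differed by 0.03 (SE 0.187). Taking only the 30 genes of the family that share 10% or less of their stretches, 14 were lower and 2 higher in B6GFP_WT. Taking the 20 that share more, 12 were lower and 4 higher. The shares over all genes were 23.2% lower and 17.9% higher.

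The libraries of the strains did not overlap in wild type for 3 genes, Zfp937 on the lower side and Zfp965 and Zfp973 on the higher. Over all genes, 6.15% had no overlap with B6GFP_WT lower and 4.15% with it higher, so 1 and 2 of 50 were no more than this background.

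The same comparison in MD43 cells set other lines against each other, within the same model. Here 28 of the 50 differed, with 24 lower and 4 higher in B6GFP_MD43, against 34.4% of all genes, 19.6% lower and 14.7% higher. The median difference was -0.35 over the 50 genes, -0.24 over the 290 other Zfp genes and -0.03 over all. All 32 genes that passed in wild type had the same direction, and 25 of them passed again. The same was not counted over all genes, so this agreement is not shown to be particular to the family. Without weights 4 passed (Zfp942, Zfp945, Zfp965 and Zfp973), or 8%, near the 6.82% of all genes. Within batch 1, with 2 libraries in each MD43 group, 15 passed, or 30%, against 24.1% of all genes. Centring gave 21 lower and 4 higher, while all genes went from 2927 lower and 2199 higher to 2265 and 3013. The libraries of the strains did not overlap for 18 genes, 14 lower and 4 higher (Zfp960, Zfp965, Zfp968 and Zfp973), against 8.84% and 7.86% of all genes. The lower count was above this background, and the higher count near it.

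Zfp965 and Zfp973 differed in MD43 cells by 2.23 (SE 0.22) and 1.91 (SE 0.247), close to the wild-type values of 2.12 and 1.91. Zfp937 was lower by 0.57 (SE 0.104), Zfp970 by 0.62 (SE 0.11), Zfp942 by 0.44 (SE 0.0674) and Zfp949 by 0.98 (SE 0.202). Zfp968 differed by 0.65 (SE 0.327) and did not pass, although its strains did not overlap. There were 7 genes that passed in wild type alone, Zfp941 and Zfp968 among them, and the 3 that passed in MD43 alone were Zfp944 (-0.24, SE 0.0835), Zfp964 (-0.81, SE 0.22) and Zfp982 (-1.18, SE 0.439). Passing in one genotype and not the other was not itself a difference. The test of that difference passed for none of them.

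The genes for the 2 main partners of KRAB zinc finger proteins did not pass between the strains. Trim28, which encodes the protein bound by KRAB domains, had group means of 9.2 ± 0.077 log2 CPM in FVB_WT (SD over 5 lines) and 9.17 ± 0.101 in B6GFP_WT (SD over 4 lines), with a fitted difference of 0.06 (SE 0.0561, adjusted p = 0.452). Setdb1, the methyltransferase of the complex, had 7.1 ± 0.0506 and 7.08 ± 0.0955, a difference of 0.02 (SE 0.0418, adjusted p = 0.778). Of 23 listed corepressor and heterochromatin genes in the table, 10 passed in wild type, 6 lower and 4 higher, which at 43.5% was near the 41.1% of all genes. In MD43 lines 6 passed, all higher. This was 26.1%, against 34.4% of all genes in both directions and 14.7% of all genes on the higher side. The largest differences were those of Pphln1 (0.69, SE 0.087), a subunit of the HUSH silencing complex, and the histone deacetylase gene Hdac1 (0.68, SE 0.0574). Tasor, another HUSH subunit, was lower by 0.43 (SE 0.106) in wild type. The lower calls depended on scaling, since with centring 1 of the 23 was lower and 5 higher in wild type.

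The second question was whether the MommeD43 change in Smchd1 altered these genes. In FVB lines 0 of the 50 genes passed (limma) against 0.0737% of all genes, and 4 of the 50 had an unadjusted p under 0.05 (8%, against 6.86% of all genes). In B6GFP lines 0 passed against 0% of all genes, and 1 had an unadjusted p under 0.05 (2%, against 2.14%). Averaged over the strains 0 passed against 0.0335% of all genes, with 2 at an unadjusted p under 0.05 (4%, against 4.62%). The median change was 0.03 in FVB, 0.04 in B6GFP and 0.01 in both over all genes. The 95% interval of the change stayed within 1.5-fold in either direction for 40 genes in FVB and for 38 in B6GFP. For the other genes the interval reached beyond that size.

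Zfp982, a KRAB gene of the chromosome 4 cluster, had the smallest p in FVB. In FVB_WT it ran from -3.01 to -0.47 log2 CPM with a median of -1.66, and in FVB_MD43 it was at -0.42, -0.86, 0.63, -1.45 and -0.23. It ran from -2.34 to -1.19 in B6GFP_WT, and in B6GFP_MD43 it was at -1, -2.93, -1.72, -1.66 and -3.06. The FVB groups overlapped, with 2 FVB_MD43 libraries inside the FVB_WT range and 3 above it. The fitted change in FVB was 1.1 (SE 0.329, unadjusted p = 0.00313, limma adjusted p = 0.31). Batch 1 alone gave 1 and batch 2 alone 1.28, while adding 1 CPM to all values gave 0.33. The change in B6GFP was 0 (SE 0.428).

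Zfp964 of the chromosome 8 cluster was next in FVB, with a change of 0.44 (SE 0.165, unadjusted p = 0.0156 from limma). It ran from 0.64 to 1.12 in FVB_WT, and in FVB_MD43 it was at 1.43, 1.18, 1.06, 0.74 and 1.73. In B6GFP its change was -0.41 (SE 0.215). Zfp947 of the chromosome 17 cluster, with 9 fingers, changed by -0.47 (SE 0.201, unadjusted p = 0.0291 from limma) in FVB and by 0.32 (SE 0.261) in B6GFP. None of these passed after adjustment. The count in FVB rested on 1 line. Without FVB_MD43 replicate 2, which held the library of the highest weight, 6 genes passed, namely Zfp932, Zfp947, Zfp956, Zfp964, Zfp973 and Zfp982. This was 12% of the family, and 6.54% of all genes passed in that fit against 0.0737% with the line, so the rise was not particular to these genes.

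In B6GFP the smallest p was that of Zfp995 on chromosome 17, with 9 fingers. It ran from 1.66 to 2.12 log2 CPM in B6GFP_WT, and in B6GFP_MD43 it was at 2.17, 2.34, 2.48, 2.15 and 1.57. The last of these lay below every B6GFP_WT library and the other 4 above. The change was 0.37 (SE 0.13, unadjusted p = 0.00933, limma adjusted p = 1), and its direction turned between batches, with 0.45 in batch 1 and -0.18 in batch 3. Zfp939 changed by 0.33 (SE 0.172), likewise with 0.51 in batch 1 but -0.12 in batch 3. For the mean effect of both strains, the smallest p were those of Zfp995 (0.24, SE 0.0817), Zfp973 (-0.32, SE 0.152) and Zfp982 (0.55, SE 0.27).

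**Figure D4:**
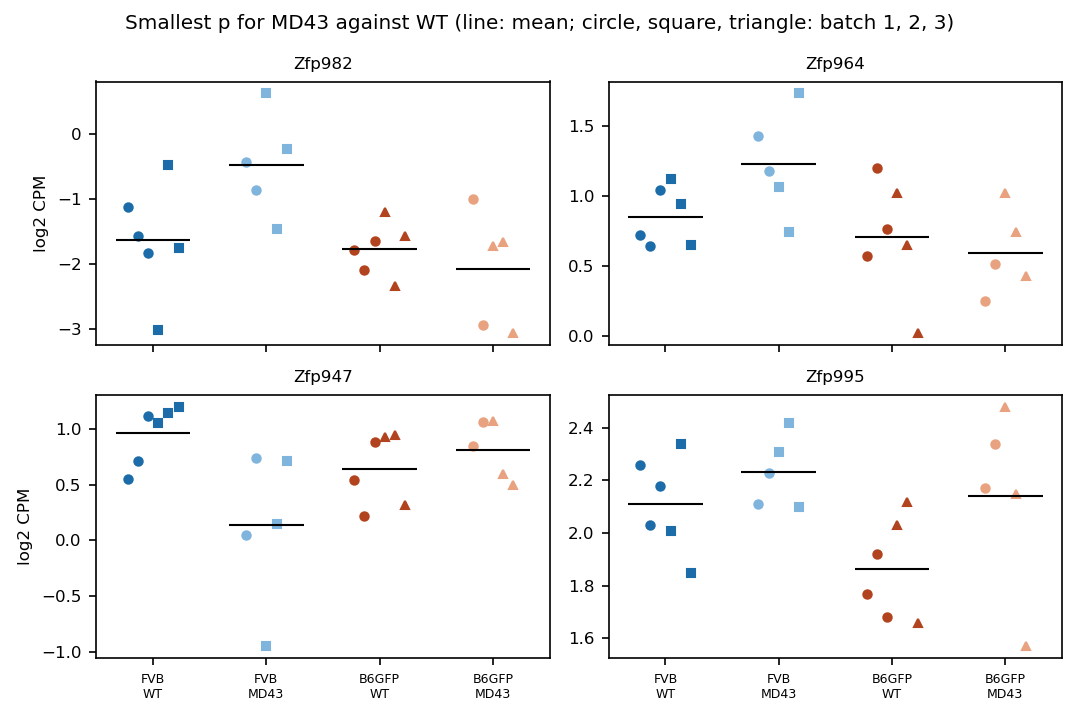
Level in log2 CPM (y axis, a separate scale for each gene) of Zfp982, Zfp964, Zfp947 and Zfp995 in every library of the 4 groups (x axis), with a line at the unweighted mean over libraries and the marker shape for the batch. MD43 and WT libraries of a strain overlap in each panel.

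The last comparison asked whether the effect of MommeD43 differed between the strains. The difference of the effects, B6GFP minus FVB, passed for 0 of the 50 genes (limma) against 0% of all genes, with 2 at an unadjusted p under 0.05 (4%, against 3.08%). These were Zfp964, at -0.84 (SE 0.271, unadjusted p = 0.00538), and Zfp947, at 0.8 (SE 0.33, unadjusted p = 0.0251). The third was Zfp982, at -1.1 (SE 0.54). Their intervals were wide, from -1.41 to -0.28 for Zfp964, from 0.11 to 1.48 for Zfp947 and from -2.22 to 0.03 for Zfp982. For Zfp965 and Zfp973, the genes that differed most between strains, the effect of MommeD43 was small against that difference. Zfp973 changed by -0.32 in each strain (SE 0.185 in FVB and 0.241 in B6GFP), and its difference of effects was 0 (SE 0.304). The FVB change came from batch 1 (-0.51), because batch 2 held 0 reads in both genotypes and gave 0. At such low levels the unweighted line means were -1.95 in FVB_WT and -2 in FVB_MD43.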

How the data were processed

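The 24 labelled libraries were RNA sequencing libraries made from 100 ng of RNA and read as 75-base single ends. Per the study's methods and the labels, the authors trimmed reads with Trim Galore 0.4.4, mapped them with HISAT2 2.0.5 to GRCm38.p6, a C57BL/6J genome, for both strains (the effect on FVB values was not tested), and analysed them with limma 3.40.6 and edgeR. Their read counter and annotation are not given in the sources used here. As deposited, values are log2 CPM that the authors had corrected for batch. Because batches 2 and 3 hold 1 strain each, the strain contrast rests on batch 1. Of the 24 columns, 2 of batch 1, namely replicate 3 of FVB_MD43 and replicate 2 of B6GFP_MD43, equalled the mean of their group mates to within 8e-09 and were left out. Relative depth came from the steps between the lowest values, where all 3143 values were whole multiples to within 0.02 of a step.

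Using limma 3.58.1 (R 4.3.3), linear models of group plus batch were fitted to all 14922 genes, with array weights (0.101 to 4.9), a mean-variance trend, and the line as a block (consensus correlation 0.0827). P-values were adjusted by Benjamini-Hochberg, with a threshold of 0.05. The weighted fit can differ from the difference of group means. The p-values measure the spread between lines and libraries. The model was also run on simulated data with the same spread in every library, which cannot test the array weights. Members, lists and alternatives were chosen with earlier results of these data known. Genes named were, between strains, the passing genes with the smallest p (up to 10 each way), and otherwise the 3 with the smallest p, with members of the clusters and the extremes of level per kb. Exons came from GENCODE, matched by Entrez identifier for 49 genes and by symbol for 1, and promoters from RefSeq.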

Additional observations from a re-analysis of the deposited data

Results flagged for a closer look

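Over 22 named genes and 4 groups, 5 of 88 sets of line means held a line set apart from the rest of its group by more than Dixon's 95% value, and chance alone sets apart about 1 in 20. Zfp960 was at 2.51 log2 CPM in FVB_MD43 replicate 1, against 2.18 for the next line. Zfp994 was at 2.62 in FVB_WT replicate 1, the next line being at 3.21. Zfp951 was at 1.7 in B6GFP_MD43 replicate 1, where the next line was at 1.4. Zfp974 was at 2.37 in B6GFP_MD43 replicate 3, with the next line at 2.77. Zfp939 was at 2.09 in B6GFP_WT replicate 4, which had the lowest weight of all libraries, and the next line was at 1.32.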

How the results depend on the processing

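The strain counts kept within 1.5 times their values under the trend, centring, pseudocount, low-value filter, line-mean and no-line-block settings. Without weights 6 genes passed in wild type and 4 in MD43, and with the replicate block 3 and 8 (6% and 16% of the family, against 11.6% and 14.2% of all genes). Under the block the wild-type family was thus below the share of all genes, with 1 lower and 2 higher, and the excess on the lower side did not appear. Same-numbered libraries of a batch had correlations of their deviations from -0.459 to 0.382, and differently numbered ones from -0.558 to 0.622. With so few libraries per group and batch, these values cannot settle whether the replicate numbers pair the libraries. Within batch 1, 15 passed in MD43. With all 24 columns, 48 passed in MD43 between strains, 4 for MommeD43 in FVB, 1 in B6GFP, 2 averaged over strains and 1 for the difference of effects (93.8%, 3.42%, 3.22%, 6.77% and 0.409% of all genes). In wild type 34 passed between strains, with 43.2% of all genes. The 2 columns left out elsewhere belong to MD43 groups, and how they raised these counts was not tested. Leaving out each line gave 27 to 33 in wild type, 26 to 31 in MD43, 0 to 6 for MommeD43 in FVB and 0 to 0 in the other comparisons. Of all genes, 26.9% to 42.9% passed in these fits in wild type and 31.1% to 54.8% in MD43. Among the refits of single named genes, 777 kept their direction and side of the threshold, 50 lost the call and 10 gained it. The other 2 turned direction, both for MommeD43 in B6GFP within batch 3, Zfp995 to -0.18 and Zfp939 to -0.12. Apart from the settings named, the cause of these changes was not tested. Adding 1 CPM shrank the differences of low genes, Zfp965, Zfp973, Zfp968 and Zfp982 among them, by over 1.5 times.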
